A study of Homo sapiens with 9 samples.

Results

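The genes described here are 51 genes whose products carry out mitosis, the step of the cell cycle in which duplicated chromosomes are separated and the cell divides. They are picked by gene name for what their proteins do, and no measured value enters the rule. The list was, however, chosen with earlier results of these data known. Each name matched 1 of the 60623 gene identifiers in the deposited tables. The RNA came from U937, a human cell line of immature monocytic cells, in 3 stable lines. One line carried the empty pRetrox-Tet3G vector and is labelled as wild type, one carried HA-tagged AML1-ETO (clone #4) and one carried HA-tagged ETO2-GLIS2 (clone #14). Both fusion genes come from leukaemia, both were delivered by retrovirus, and doxycycline switches their transcription on. Each line was sequenced before treatment (0 h) and after 12 and 48 h of 5 μg/ml doxycycline, which the empty vector line received as well. Each fusion line is a single clone and each of the 9 conditions has 1 library, so no difference between conditions has a replicate check, and differences between lines cannot be told apart from differences between clones. The study used these libraries to ask which genes each fusion protein regulates, with the empty vector line as the control for the drug.

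Cyclin B and cyclin A with the kinase CDK1 start mitosis, and Polo-like and Aurora kinases help to build the spindle. Condensin and topoisomerase II shape the chromosomes, kinetochores attach them to microtubules, and kinesin motors move them. The spindle checkpoint holds cells before anaphase until all chromosomes are attached. Then the anaphase-promoting complex marks securin and cyclin B for destruction, separase cuts cohesin, and a contractile ring divides the cell. Most of these genes are transcribed late in the cell cycle, and their RNA is widely used as a mark of dividing cells. U937 cells divide continuously in culture.

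Values are FPKM, read counts per gene divided by exon length and by the library's total of reads on genes. The reads behind them were recovered from the tables, and the libraries held 15136404 to 18443647 reads on genes. Fold changes are log2 of FPKM plus 0.01, and the interval printed after each is an exact 95% Clopper-Pearson interval from the recovered reads. It covers counting error only and not the variation between cultures. The transcripts that mark the constructs were highest in the induced libraries of their own lines. The margin was wide for RUNX1T1 and narrow for GLIS2. RUNX1T1, the ETO gene, stood at 0.512, 22.2 and 28.7 FPKM after 0, 12 and 48 h with AML1-ETO and at most at 0.0240 FPKM elsewhere. GLIS2 stood at 2.39, 6.79 and 8.85 FPKM with ETO2-GLIS2 and between 2.47 and 5.60 FPKM elsewhere. Of 8 monocytic markers, 5 reached 1 FPKM in some library, with CD4 and LYZ the highest, while CD14 stayed at or below 0.08 FPKM and CD68 at or below 0.03 FPKM. The 4 megakaryocyte and the 4 epithelial or stromal markers all stayed below 1 FPKM.

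In the AML1-ETO line, the mitosis genes were lower together after 48 h of doxycycline. Their share of the reads on genes was 0.898% at 0 h, 0.798% at 12 h and 0.501% at 48 h, with a counting interval of 0.498% to 0.505% at 48 h. In the empty vector line it was 1.04%, 0.975% and 0.953%, and with ETO2-GLIS2 it was 0.944%, 0.924% and 0.910%. Thus the AML1-ETO library at 48 h stood apart below the other 8, and 47 of the 51 genes had their lowest FPKM of all 9 libraries there. The share of all genes that were lowest there was not counted, so the 47 is not read as a result about the mitosis genes. The median FPKM of the 51 genes with AML1-ETO was 22.9, 22.3 and 12.0 at these times. In bulk RNA, fewer cells late in the cell cycle and less of these transcripts per cell cannot be told apart.

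**Figure D1:**
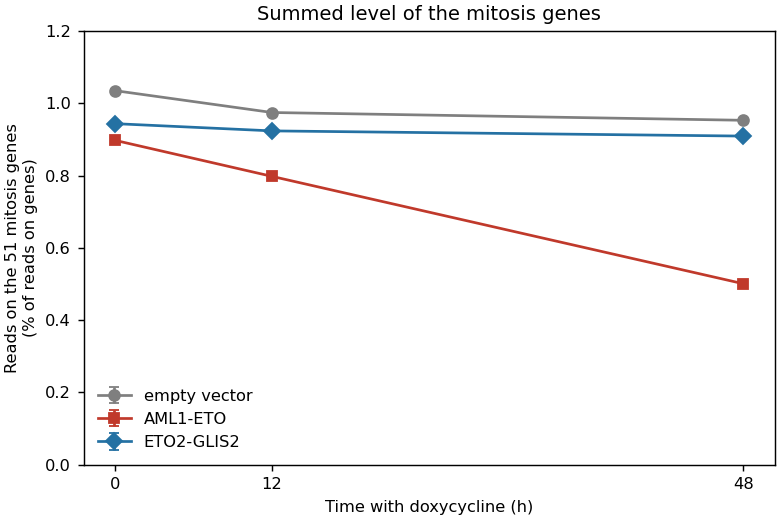
Reads on the 51 mitosis genes as a percentage of all reads on genes (y axis) against hours with doxycycline (x axis) in the 3 lines, 1 library per point; the counting intervals are smaller than the symbols. The AML1-ETO line goes from 0.898% to 0.501%, while the other lines stay between 0.910% and 1.04%.

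A gene was called when it changed by more than 2-fold and had a mean of at least 1 FPKM in the 2 libraries compared, and 49 of the 51 genes reached that level in all 6 comparisons with 0 h. At 48 h in the AML1-ETO line, 24 of the 49 genes were lower by more than 2-fold, where 11.3% of all 12030 genes tested were. None of the 49 was higher by that much, where 17.3% of all genes were. The counting interval lay below 0 for 48 of the 49 genes (29.5% of all genes) and above 0 for 1, SMC4 (48.5% of all genes). The median log2 fold change of the 49 genes was -0.99, and that of all genes was 0.22. At a lower threshold of 1.5-fold, 43 of the 49 were lower (18.5% of all genes), and 48 were lower by any amount (39.1%). Leaving out each of the 8 role groups described below in turn, a check chosen after the data were seen, gave medians between -1.07 and -0.94.

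The empty vector and ETO2-GLIS2 lines held none of the 49 genes past 2-fold in either direction at either time. In the empty vector line, 1.88% of all genes were called lower and 5.64% higher at 12 h, and 2.99% lower and 8% higher at 48 h. In the ETO2-GLIS2 line, 1.46% were called lower and 3.03% higher at 12 h, and 2.54% lower and 10.8% higher at 48 h. The median log2 fold change of the mitosis genes at 48 h was -0.04 for the empty vector and -0.10 for ETO2-GLIS2, where the medians of all genes were both 0.16. Set against the median of all genes, below which 50% of all genes lie, 32 of the 49 genes were lower in the empty vector line and 43 in the ETO2-GLIS2 line, against 48 in the AML1-ETO line.

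**Figure D2:**
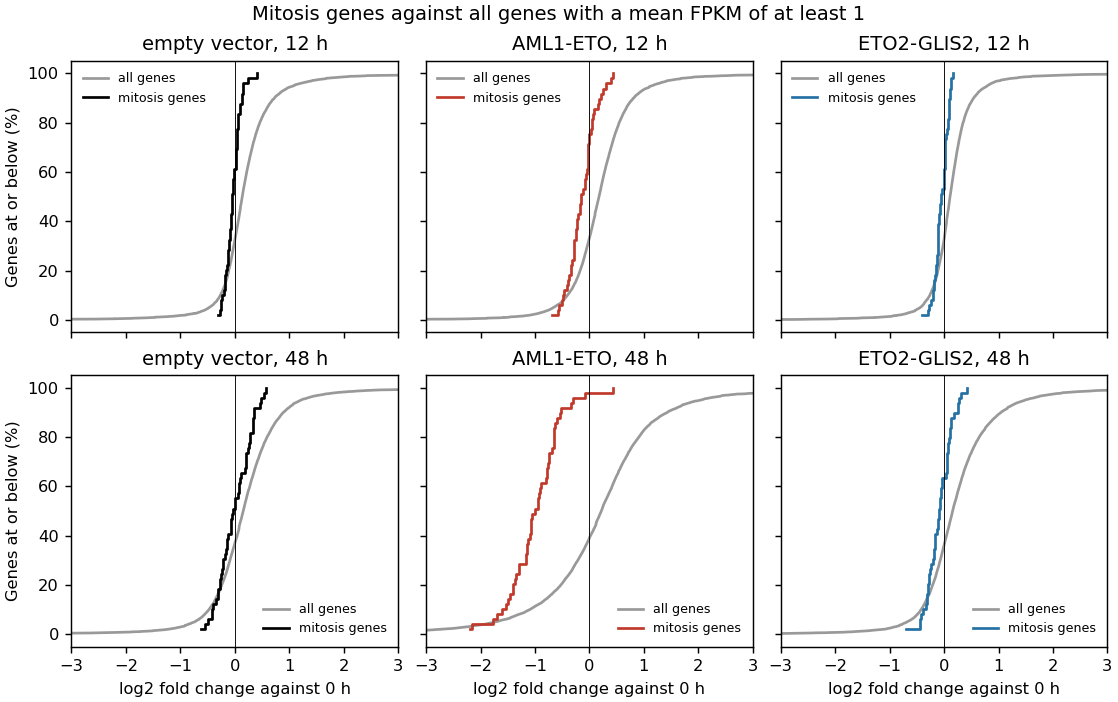
Share of genes at or below each log2 fold change against 0 h (x axis), for the 49 mitosis genes with enough reads (coloured steps) and all genes with a mean of at least 1 FPKM (grey), by line and time. With AML1-ETO at 48 h the mitosis genes lie to the left of all genes (medians -0.99 and 0.22), and in the other panels the members' median minus that of all genes lies between -0.33 and -0.17.

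Other values moved with the 48 h library of the AML1-ETO line. The summed level of the 8 monocytic markers was 244 FPKM there and 565 to 1732 FPKM in the other 8 libraries. Such a sum follows its most abundant genes, and LYZ, the lysozyme gene, stood at 969.7, 1346 and 45.1 FPKM in that line. The sum therefore does not show whether the other monocytic markers were lower. Mitochondrial genes took 5.03%, 3.03% and 2.11% of the reads at 0, 12 and 48 h in that line, and they were lower over time in the other lines too, with 5.42%, 3.56% and 3.36% for the empty vector and 5.70%, 3.86% and 2.75% for ETO2-GLIS2. The part of either in the result for the mitosis genes was not tested. Over the 9 libraries the 4 megakaryocyte markers summed to between 0.0116 and 0.107 FPKM, with 3 of them at 0 in every one. The 4 epithelial or stromal markers summed to at most 0.270 FPKM, and the 3 erythroid markers to between 0.163 FPKM, in the AML1-ETO library at 48 h, and 1.37 FPKM.

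Promoters of such genes are known for short elements: the cell cycle genes homology region (CHR), which the MuvB core of the DREAM and MYB-MuvB complexes binds, and CCAAT boxes, which NF-Y binds. RefSeq promoter windows of 250 bases before to 50 bases after the annotated start (GRCh38.p14) matched 44 of the 51 genes. Both strands were searched for the CHR letters TTTGAA or TTCGAA, for CCAAT, and for 4 E2F-type sequences, TTTCCCGC, TTTCGCGC, TTTGCCGC and TTTGGCGC, and no motif lies within another. CHR letters were found in 33 of the 44 promoters (75%), against 16.6% of all 27305 promoters. From 60 bases before the start onward, they were found in 27 (61.4%), against 5.61%. CCAAT was found in 32 (72.7%), against 35.7% of all promoters, and at least 2 copies in 19 (43.2%), against 11.3%. Both motifs were present in 25 (56.8%), against 6.58%, while the E2F-type sequences were found in 3 (6.82%), against 3.33%. These are matches of letters and not measured binding sites.

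The windows of 6 genes are printed here, those with the most CHR and CCAAT matches among the genes given below with all their values. Each runs for 280 bases, from 250 before the annotated start, 5′ to 3′ on the strand of the gene, from RefSeq on GRCh38.p14, with CHR and CCAAT letters of either strand (TTCAAA and ATTGG on the other one) in capitals. The windows are TOP2A (chr17:40417867-40418146, minus strand), DLGAP5 (chr14:55191556-55191835, minus strand), ECT2 (chr3:172750476-172750755, plus strand), CENPF (chr1:214602945-214603224, plus strand), NCAPD2 (chr12:6493852-6494131, plus strand) and ASPM (chr1:197146640-197146919, minus strand).
TOP2A: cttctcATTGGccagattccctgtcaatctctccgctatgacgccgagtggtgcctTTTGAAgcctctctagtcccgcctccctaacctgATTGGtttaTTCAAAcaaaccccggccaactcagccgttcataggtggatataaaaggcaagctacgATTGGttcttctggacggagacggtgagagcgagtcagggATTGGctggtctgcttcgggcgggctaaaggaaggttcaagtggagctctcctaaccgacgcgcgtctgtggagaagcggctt
DLGAP5: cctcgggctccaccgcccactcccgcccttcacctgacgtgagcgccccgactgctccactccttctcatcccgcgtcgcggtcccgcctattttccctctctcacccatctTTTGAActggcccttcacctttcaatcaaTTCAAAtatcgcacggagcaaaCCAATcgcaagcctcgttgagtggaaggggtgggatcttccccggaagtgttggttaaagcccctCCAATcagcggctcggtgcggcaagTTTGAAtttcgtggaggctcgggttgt
ECT2: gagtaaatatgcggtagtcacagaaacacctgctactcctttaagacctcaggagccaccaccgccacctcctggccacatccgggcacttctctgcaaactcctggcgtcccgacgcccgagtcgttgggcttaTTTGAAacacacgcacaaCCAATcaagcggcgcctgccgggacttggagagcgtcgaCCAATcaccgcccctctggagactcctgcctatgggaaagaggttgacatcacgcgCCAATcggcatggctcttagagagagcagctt
CENPF: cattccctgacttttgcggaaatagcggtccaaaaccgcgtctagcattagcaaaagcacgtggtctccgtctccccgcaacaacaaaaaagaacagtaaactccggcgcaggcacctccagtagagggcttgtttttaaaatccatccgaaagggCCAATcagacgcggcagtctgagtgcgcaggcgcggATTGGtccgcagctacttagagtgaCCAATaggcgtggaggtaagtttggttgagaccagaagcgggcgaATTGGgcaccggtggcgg
NCAPD2: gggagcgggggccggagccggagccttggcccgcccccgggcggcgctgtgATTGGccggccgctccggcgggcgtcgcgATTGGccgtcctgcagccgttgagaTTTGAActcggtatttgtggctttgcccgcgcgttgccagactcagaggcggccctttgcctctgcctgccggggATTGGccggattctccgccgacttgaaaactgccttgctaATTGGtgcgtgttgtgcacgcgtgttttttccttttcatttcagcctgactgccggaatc
ASPM: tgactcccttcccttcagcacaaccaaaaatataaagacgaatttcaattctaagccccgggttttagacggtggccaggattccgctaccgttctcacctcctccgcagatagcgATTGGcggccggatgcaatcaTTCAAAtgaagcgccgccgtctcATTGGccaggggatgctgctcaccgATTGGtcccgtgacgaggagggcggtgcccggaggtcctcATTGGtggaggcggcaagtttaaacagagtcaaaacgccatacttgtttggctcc
TOP2A, CENPF, NCAPD2 and ASPM each hold 4 CCAAT boxes, and DLGAP5 holds 3 CHR matches, 1 of them at base 4 after the start. The only CHR match of CENPF lies 41 bases after the start and 1 of the matches of ECT2 lies 35 after it, both beyond the printed stretch. At 48 h in the AML1-ETO line the median log2 fold change was -0.97 for the 32 tested genes with a CHR match and -1.11 for the 10 without. It was -1.06 for 31 genes with CCAAT and -1.07 for 11 without, and -1.49 for the 3 genes with an E2F-type sequence and -1.06 for the 39 without.

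In the following, the FPKM of each gene are given in the order 0, 12 and 48 h for each line, and each log2 fold change is against 0 h of the same line. Gene positions are those of RefSeq on GRCh38.p14. Of the kinases and cyclins of mitotic entry, all 6 tested were lower in the AML1-ETO line at 48 h, with a median log2 fold change of -0.68, and 1 of them was past 2-fold. That gene was CCNA2 (ENSG00000145386, chr4:121816444-121823883), which encodes cyclin A2, the cyclin of S and G2 phase. It measured 78.6, 68.8 and 65.9 FPKM with the empty vector, 63.5, 56.9 and 24.5 FPKM with AML1-ETO and 68.0, 62.1 and 56.4 FPKM with ETO2-GLIS2, and its log2 fold change at 48 h with AML1-ETO was -1.37 (-1.48 to -1.27). The AML1-ETO library at 48 h was the lowest of the 9, with the others between 56.4 and 78.6 FPKM. CDK1 (ENSG00000170312, chr10:60778331-60794852), the kinase that drives entry, measured 26.4, 27.4 and 36.6 FPKM with the empty vector, 26.4, 29.9 and 15.8 FPKM with AML1-ETO and 35.2, 33.1 and 32.9 FPKM with ETO2-GLIS2. At 48 h it was lower with AML1-ETO, at -0.74 (-0.85 to -0.62), and higher in the empty vector line, at 0.47 (0.38 to 0.56). CCNB1 (ENSG00000134057, chr5:69167150-69178245), the cyclin B1 gene, measured 73.3, 71.4 and 77.9 FPKM with the empty vector, 69.8, 92.2 and 48.1 FPKM with AML1-ETO and 81.2, 78.7 and 65.0 FPKM with ETO2-GLIS2. Its highest level of all 9 libraries was that of AML1-ETO at 12 h and its lowest that of AML1-ETO at 48 h, with log2 fold changes of 0.40 (0.33 to 0.48) and -0.54 (-0.62 to -0.45). PLK1, the Polo-like kinase of the spindle poles and kinetochores, measured 38.2, 38.8 and 40.2 FPKM with the empty vector, 36.1, 38.3 and 23.3 FPKM with AML1-ETO and 30.2, 30.6 and 33.0 FPKM with ETO2-GLIS2. AURKA, the Aurora kinase of the centrosomes, measured 31.8, 32.5 and 38.9 FPKM with the empty vector, 31.6, 30.9 and 24.96 FPKM with AML1-ETO and 36.6, 33.7 and 37.9 FPKM with ETO2-GLIS2. Both were lowest with AML1-ETO at 48 h, at -0.63 (-0.72 to -0.54) and -0.34 (-0.45 to -0.23), and AURKA had the smallest difference of the group. CCNB2, the other B-type cyclin, stood between 52.2 and 62.7 FPKM in 8 libraries and at 27.2 FPKM with AML1-ETO at 48 h.

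Among the genes of the spindle checkpoint and of anaphase, all 9 were lower in the AML1-ETO line at 48 h, with a median of -0.99, and 4 were past 2-fold. PTTG1 (ENSG00000164611, chr5:160421855-160428744) encodes securin, the inhibitor that holds separase back until anaphase. It measured 38.3, 37.6 and 38.7 FPKM with the empty vector, 37.3, 31.9 and 10.9 FPKM with AML1-ETO and 43.7, 36.0 and 32.2 FPKM with ETO2-GLIS2, a log2 fold change of -1.77 (-1.96 to -1.60) with AML1-ETO at 48 h. BUB1 (ENSG00000169679, chr2:110637528-110678063), a checkpoint kinase of the kinetochore, measured 32.5, 27.7 and 25.5 FPKM with the empty vector, 29.4, 21.3 and 9.61 FPKM with AML1-ETO and 33.3, 30.7 and 26.3 FPKM with ETO2-GLIS2. In every line its level was lowest at 48 h, but the AML1-ETO library lay far below, at -1.61 (-1.77 to -1.46) against -0.35 (-0.46 to -0.24) in the empty vector line. BUB1B, which encodes the checkpoint protein BubR1, measured 47.4, 43.8 and 41.7 FPKM with the empty vector, 42.6, 33.9 and 16.7 FPKM with AML1-ETO and 37.0, 39.0 and 38.5 FPKM with ETO2-GLIS2. TTK, the kinase that starts checkpoint signalling, measured 13.3, 11.1 and 10.1 FPKM with the empty vector, 10.4, 8.59 and 4.71 FPKM with AML1-ETO and 15.4, 11.6 and 9.55 FPKM with ETO2-GLIS2. BUB1B differed by -1.35 (-1.45 to -1.26) with AML1-ETO at 48 h, and 10.2% of its exon bases are shared with PAK6 and a readthrough gene on the same strand. TTK differed by -1.14 (-1.33 to -0.96) with AML1-ETO and had the lowest value of the group with ETO2-GLIS2, -0.69 (-0.83 to -0.56). CDC20, which activates the anaphase-promoting complex, measured 130.1, 142 and 157 FPKM with the empty vector, 118, 118 and 59.2 FPKM with AML1-ETO and 124, 127 and 110.4 FPKM with ETO2-GLIS2. Its value at 48 h with AML1-ETO, -0.99 (-1.07 to -0.91), missed 2-fold narrowly, and all other libraries lay above 110 FPKM. ESPL1 (ENSG00000135476, chr12:53268299-53293638) encodes separase, the protease that cuts cohesin. It measured 15.5, 17.0 and 17.9 FPKM with the empty vector, 12.9, 11.4 and 6.78 FPKM with AML1-ETO and 10.4, 11.3 and 13.9 FPKM with ETO2-GLIS2, and at 48 h it was lower with AML1-ETO, at -0.93 (-1.05 to -0.82), and higher in the other lines, at 0.21 (0.13 to 0.29) and 0.41 (0.32 to 0.51). BUB3, which carries Bub1 and BubR1 to kinetochores, measured 20.2, 21.7 and 25.6 FPKM with the empty vector, 18.6, 21.6 and 17.5 FPKM with AML1-ETO and 23.2, 24.7 and 26.3 FPKM with ETO2-GLIS2. It had the smallest difference of the 49 genes with AML1-ETO at 48 h, -0.09 (-0.17 to -0.004). MAD2L1, the Mad2 gene, and UBE2C, the ubiquitin-conjugating enzyme of the anaphase-promoting complex, differed by -0.64 (-0.80 to -0.49) and -0.66 (-0.82 to -0.50).

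**Figure D3:**
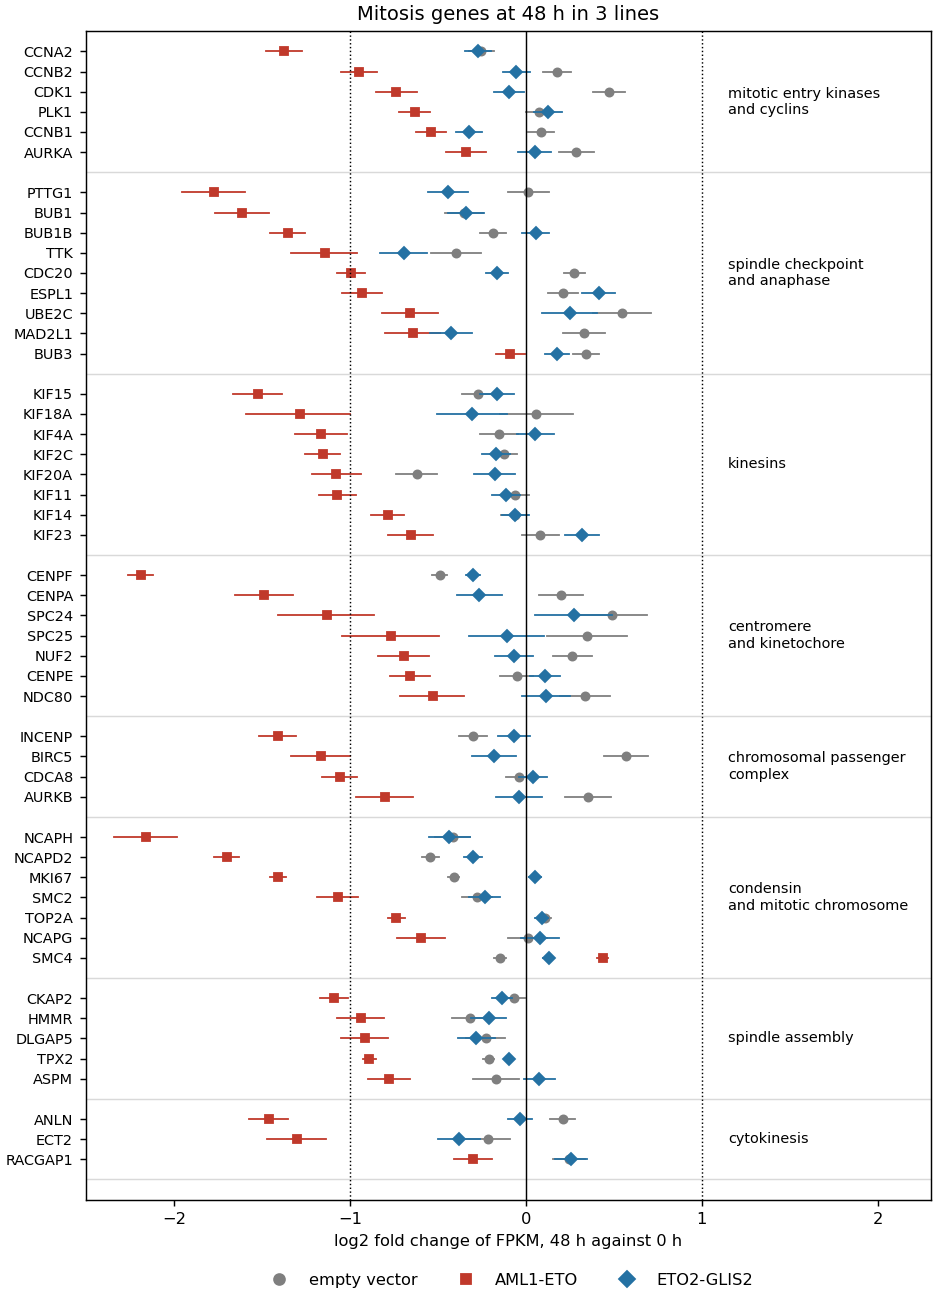
Log2 fold change of FPKM at 48 h against 0 h (x axis) for the 49 mitosis genes, by role group, in the empty vector (grey circles), AML1-ETO (red squares) and ETO2-GLIS2 (blue diamonds) lines, with 95% counting intervals; dotted lines mark 2-fold. With AML1-ETO, 48 genes lie below 0 and SMC4 lies above it, while no gene of the other lines reaches a dotted line.

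The kinesin group was among the lowest, with all 8 genes lower in the AML1-ETO line at 48 h, a median of -1.11 and 6 genes past 2-fold. KIF15 (ENSG00000163808, chr3:44761794-44868687), a motor that helps to hold the spindle bipolar, measured 25.4, 22.5 and 21.1 FPKM with the empty vector, 19.7, 16.7 and 6.86 FPKM with AML1-ETO and 20.6, 21.9 and 18.4 FPKM with ETO2-GLIS2. KIF11, the motor that pushes the poles apart, measured 30.8, 28.2 and 29.5 FPKM with the empty vector, 29.4, 24.2 and 13.99 FPKM with AML1-ETO and 31.0, 28.4 and 28.6 FPKM with ETO2-GLIS2. Their log2 fold changes with AML1-ETO were -1.52 (-1.67 to -1.39) and -1.07 (-1.18 to -0.97), and in both the other 8 libraries stayed at or above 16.7 FPKM. KIF18A, which damps chromosome movements at the spindle equator, measured 5.21, 6.93 and 5.44 FPKM with the empty vector, 4.73, 3.34 and 1.93 FPKM with AML1-ETO and 5.95, 4.85 and 4.82 FPKM with ETO2-GLIS2. Its interval was the widest of the kinesins, -1.28 (-1.59 to -0.997), and the AML1-ETO libraries at 12 and 48 h were the 2 lowest of the 9. KIF4A, a motor that binds chromosome arms and the central spindle, measured 20.9, 21.5 and 18.9 FPKM with the empty vector, 17.2, 13.8 and 7.70 FPKM with AML1-ETO and 18.8, 20.3 and 19.6 FPKM with ETO2-GLIS2. KIF2C, which takes microtubule ends apart at kinetochores, measured 52.2, 48.2 and 47.8 FPKM with the empty vector, 45.8, 36.2 and 20.6 FPKM with AML1-ETO and 41.2, 39.3 and 36.7 FPKM with ETO2-GLIS2. They differed by -1.16 (-1.31 to -1.02) and -1.15 (-1.25 to -1.05) with AML1-ETO, and by -0.15 and -0.13 in the empty vector line. KIF20A, which carries the passenger complex to the central spindle, measured 25.6, 24.8 and 16.6 FPKM with the empty vector, 21.8, 20.7 and 10.3 FPKM with AML1-ETO and 18.9, 19.0 and 16.7 FPKM with ETO2-GLIS2. It was also lower in the empty vector line at 48 h, at -0.62 (-0.74 to -0.51), the lowest value of the 49 genes there, against -1.08 (-1.22 to -0.94) with AML1-ETO. KIF23, the motor subunit of centralspindlin, measured 13.6, 12.8 and 14.4 FPKM with the empty vector, 12.5, 12.4 and 7.96 FPKM with AML1-ETO and 13.5, 13.5 and 16.8 FPKM with ETO2-GLIS2, and it was lower with AML1-ETO, at -0.65 (-0.78 to -0.53), and higher with ETO2-GLIS2, at 0.32 (0.22 to 0.42). KIF14, another motor of late mitosis, stood at 12.7 FPKM with AML1-ETO at 48 h and between 20.3 and 24.9 FPKM in the other 8 libraries.

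Of the centromere and kinetochore genes, all 7 were lower in the AML1-ETO line at 48 h, with a median of -0.76, and 3 were past 2-fold. CENPF (ENSG00000117724, chr1:214603195-214664571), a large outer kinetochore protein made in G2 and mitosis, measured 62.7, 59.9 and 44.6 FPKM with the empty vector, 47.0, 35.3 and 10.3 FPKM with AML1-ETO and 51.7, 55.2 and 42.0 FPKM with ETO2-GLIS2. It had the largest difference of the 49 genes, -2.19 (-2.26 to -2.12), and was also lower at 48 h in the empty vector and ETO2-GLIS2 lines, at -0.49 (-0.53 to -0.45) and -0.30 (-0.34 to -0.26). CENPA (ENSG00000115163, chr2:26786056-26794589), the histone H3 variant that marks the centromere, measured 30.6, 31.8 and 35.2 FPKM with the empty vector, 37.8, 27.0 and 13.5 FPKM with AML1-ETO and 33.5, 30.1 and 27.9 FPKM with ETO2-GLIS2. The uninduced AML1-ETO library was its highest and the 48 h library of that line its lowest, a log2 fold change of -1.49 (-1.65 to -1.32). SPC24 and NDC80 belong to the Ndc80 complex, which grips microtubule ends. SPC24 measured 7.92, 9.42 and 11.1 FPKM with the empty vector, 8.18, 7.87 and 3.73 FPKM with AML1-ETO and 6.47, 6.54 and 7.82 FPKM with ETO2-GLIS2. NDC80 measured 12.7, 12.6 and 16.1 FPKM with the empty vector, 10.8, 11.3 and 7.51 FPKM with AML1-ETO and 13.7, 14.6 and 14.8 FPKM with ETO2-GLIS2. With AML1-ETO they differed by -1.13 (-1.41 to -0.86) and -0.53 (-0.71 to -0.35), and in the empty vector line by 0.49 (0.29 to 0.69) and 0.34 (0.19 to 0.48). The remaining subunits of that complex, NUF2 and SPC25, and the kinetochore motor CENPE had values between -0.76 and -0.66 with AML1-ETO at 48 h.

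The chromosomal passenger complex, which corrects faulty attachments and later guides cytokinesis, had all 4 genes lower, 3 of them past 2-fold, with a median of -1.11. INCENP, its scaffold, measured 41.1, 34.7 and 33.4 FPKM with the empty vector, 39.6, 26.8 and 14.9 FPKM with AML1-ETO and 25.9, 22.8 and 24.7 FPKM with ETO2-GLIS2. CDCA8, the borealin gene, measured 72.0, 73.3 and 70.2 FPKM with the empty vector, 65.2, 53.9 and 31.4 FPKM with AML1-ETO and 58.4, 59.0 and 60.1 FPKM with ETO2-GLIS2. BIRC5, the survivin gene, measured 14.3, 14.7 and 21.2 FPKM with the empty vector, 15.9, 16.7 and 7.10 FPKM with AML1-ETO and 17.2, 14.6 and 15.2 FPKM with ETO2-GLIS2. In the AML1-ETO line at 48 h these genes differed by -1.41 (-1.51 to -1.31), -1.06 (-1.16 to -0.96) and -1.16 (-1.33 to -0.999). For BIRC5 the empty vector line had its highest level at 48 h, with a log2 fold change of 0.57 (0.45 to 0.70), the highest of the 49 genes in that line. AURKB, the kinase of the complex, measured 24.4, 23.5 and 31.1 FPKM with the empty vector, 24.7, 21.5 and 14.2 FPKM with AML1-ETO and 25.6, 22.4 and 24.96 FPKM with ETO2-GLIS2, and with -0.80 (-0.96 to -0.64) it was the only one of the 4 short of 2-fold.

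The genes of condensin and of the mitotic chromosome ranged most widely, with 6 of the 7 tested lower in the AML1-ETO line at 48 h, a median of -1.07 and 4 past 2-fold. NCAPH (ENSG00000121152, chr2:96335766-96377091), the kleisin subunit that closes the ring of condensin I, measured 18.1, 14.6 and 13.5 FPKM with the empty vector, 13.97, 10.7 and 3.12 FPKM with AML1-ETO and 12.5, 12.6 and 9.27 FPKM with ETO2-GLIS2. NCAPD2 (ENSG00000010292, chr12:6494102-6531955), another subunit of condensin I, measured 84.0, 69.6 and 57.7 FPKM with the empty vector, 69.4, 43.2 and 21.4 FPKM with AML1-ETO and 63.0, 54.8 and 51.2 FPKM with ETO2-GLIS2. They differed by -2.16 (-2.34 to -1.98) and -1.70 (-1.77 to -1.63) in the AML1-ETO line at 48 h, and both were lower at 48 h in the empty vector line as well, at -0.42 (-0.52 to -0.32) and -0.54 (-0.59 to -0.49). MKI67 (ENSG00000148773, chr10:128096659-128126423) encodes Ki-67, which coats mitotic chromosomes and is the usual stain for dividing cells. It measured 87.0, 76.8 and 65.5 FPKM with the empty vector, 67.2, 44.8 and 25.3 FPKM with AML1-ETO and 64.8, 64.3 and 67.2 FPKM with ETO2-GLIS2, with log2 fold changes at 48 h of -1.41 (-1.45 to -1.36) with AML1-ETO, -0.41 (-0.44 to -0.38) in the empty vector line and 0.05 (0.02 to 0.09) with ETO2-GLIS2. TOP2A (ENSG00000131747, chr17:40388525-40417896), topoisomerase II alpha, which untangles sister DNA, measured 109, 104 and 118 FPKM with the empty vector, 89.7, 80.01 and 53.9 FPKM with AML1-ETO and 109.7, 105 and 117 FPKM with ETO2-GLIS2, and its log2 fold change with AML1-ETO was -0.74 (-0.79 to -0.69). The ATPase core of condensin is a pair of proteins, SMC2 and SMC4. SMC2 measured 24.2, 24.96 and 19.99 FPKM with the empty vector, 18.6, 17.1 and 8.87 FPKM with AML1-ETO and 20.6, 23.01 and 17.5 FPKM with ETO2-GLIS2, and its log2 fold change with AML1-ETO at 48 h was -1.07 (-1.18 to -0.95), past 2-fold. SMC4 (ENSG00000113810, chr3:160399650-160434953) measured 109, 101 and 98.1 FPKM with the empty vector, 98.3, 117 and 133 FPKM with AML1-ETO and 116, 121 and 127 FPKM with ETO2-GLIS2. It was the only one of the 49 genes that was higher with AML1-ETO at 48 h, at 0.44 (0.40 to 0.47), so the partners of one complex differed in direction. SMC4 was lower in the empty vector line, at -0.15 (-0.18 to -0.11), and at 0.13 (0.10 to 0.16) with ETO2-GLIS2, a value that falls below 0 (-0.04) when the libraries are rescaled by their median ratio, while the AML1-ETO value stays above it (0.27). The exons of SMC4 share 22.0% of their bases with IFT80 and TRIM59 on the opposite strand. The libraries were made with a TruSeq RNA version 2 kit, which does not mark strand. On the shared bases, reads from SMC4 and from these genes therefore cannot be told apart. IFT80 measured 1.42, 1.83 and 3.63 FPKM and TRIM59 3.95, 5.68 and 4.87 FPKM in the AML1-ETO line, and their part in the SMC4 values was not tested. NCAPG, the remaining condensin I gene here, was at -0.59 (-0.73 to -0.46) with AML1-ETO, and 33.7% of its exon bases are shared with LCORL on the opposite strand.

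All 5 spindle assembly genes were lower in the AML1-ETO line at 48 h, with a median of -0.92, and 1 was past 2-fold. TPX2 (ENSG00000088325, chr20:31739290-31801800), which activates Aurora A and seeds microtubules near chromosomes, had the highest FPKM of the 51 genes in every library and measured 359, 318 and 310.1 FPKM with the empty vector, 308, 254 and 167 FPKM with AML1-ETO and 296, 279.7 and 277 FPKM with ETO2-GLIS2. The gene past 2-fold was CKAP2, a microtubule-associated protein, which measured 64.7, 62.1 and 61.8 FPKM with the empty vector, 58.3, 50.1 and 27.4 FPKM with AML1-ETO and 66.6, 61.3 and 60.7 FPKM with ETO2-GLIS2. TPX2 and CKAP2 differed by -0.89 (-0.93 to -0.85) and -1.09 (-1.17 to -1.01) with AML1-ETO, and their libraries at that time were the lowest of the 9. DLGAP5, which stabilises the fibres that reach kinetochores, measured 24.7, 22.3 and 21.1 FPKM with the empty vector, 22.9, 22.4 and 12.1 FPKM with AML1-ETO and 26.7, 25.2 and 22.0 FPKM with ETO2-GLIS2. ASPM, a spindle pole protein, measured 5.76, 6.18 and 5.13 FPKM with the empty vector, 9.16, 8.24 and 5.34 FPKM with AML1-ETO and 10.2, 9.80 and 10.8 FPKM with ETO2-GLIS2, and here the empty vector line at 48 h was the lowest library and the ETO2-GLIS2 libraries the highest. In the AML1-ETO line DLGAP5 differed by -0.92 (-1.05 to -0.78) and ASPM by -0.78 (-0.90 to -0.66), while HMMR, which binds hyaluronan and spindle microtubules, differed by -0.94 (-1.07 to -0.80).

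Of the cytokinesis genes, all 3 tested were lower in the AML1-ETO line at 48 h, with a median of -1.30, and 2 were past 2-fold. ANLN (ENSG00000011426, chr7:36389862-36453791) encodes anillin, the scaffold of the contractile ring. It measured 29.8, 28.5 and 34.5 FPKM with the empty vector, 26.5, 22.3 and 9.61 FPKM with AML1-ETO and 32.8, 28.8 and 32.1 FPKM with ETO2-GLIS2, with -1.46 (-1.57 to -1.35) in the AML1-ETO line at 48 h and 0.21 (0.14 to 0.28) in the empty vector line. ECT2 (ENSG00000114346, chr3:172750726-172829265), the exchange factor that switches on RhoA at the division site, measured 12.6, 11.8 and 10.8 FPKM with the empty vector, 12.0, 9.26 and 4.86 FPKM with AML1-ETO and 14.1, 13.0 and 10.8 FPKM with ETO2-GLIS2, and it was lower at 48 h in all 3 lines, at -1.30 (-1.47 to -1.13) with AML1-ETO, -0.22 (-0.34 to -0.09) in the empty vector line and -0.38 (-0.50 to -0.26) with ETO2-GLIS2. RACGAP1, the partner of KIF23 in centralspindlin, measured 24.7, 23.3 and 29.3 FPKM with the empty vector, 21.6, 21.2 and 17.5 FPKM with AML1-ETO and 23.00, 22.95 and 27.5 FPKM with ETO2-GLIS2. Its difference with AML1-ETO was small, -0.30 (-0.41 to -0.19), and it was higher in the other lines, at 0.25 (0.15 to 0.34) and 0.26 (0.16 to 0.35).

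CDC25C and PRC1 stayed below the level needed for a call. CDC25C, the phosphatase that activates CDK1, had at most 0.119 FPKM in any library and 0 reads with AML1-ETO at 48 h, too few for a fold change. PRC1, which bundles the microtubules of the central spindle, ranged from 0.128 to 0.502 FPKM. The exons of PRC1 share 57.6% of their bases with AC068831.7 on the same strand and 34.3% with PRC1-AS1 on the other. AC068831.7 was listed at 1.93 to 3.91 FPKM, and HTSeq at its default settings leaves out reads that overlap several genes, so the values of PRC1 are uncertain.

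**Figure D4:**
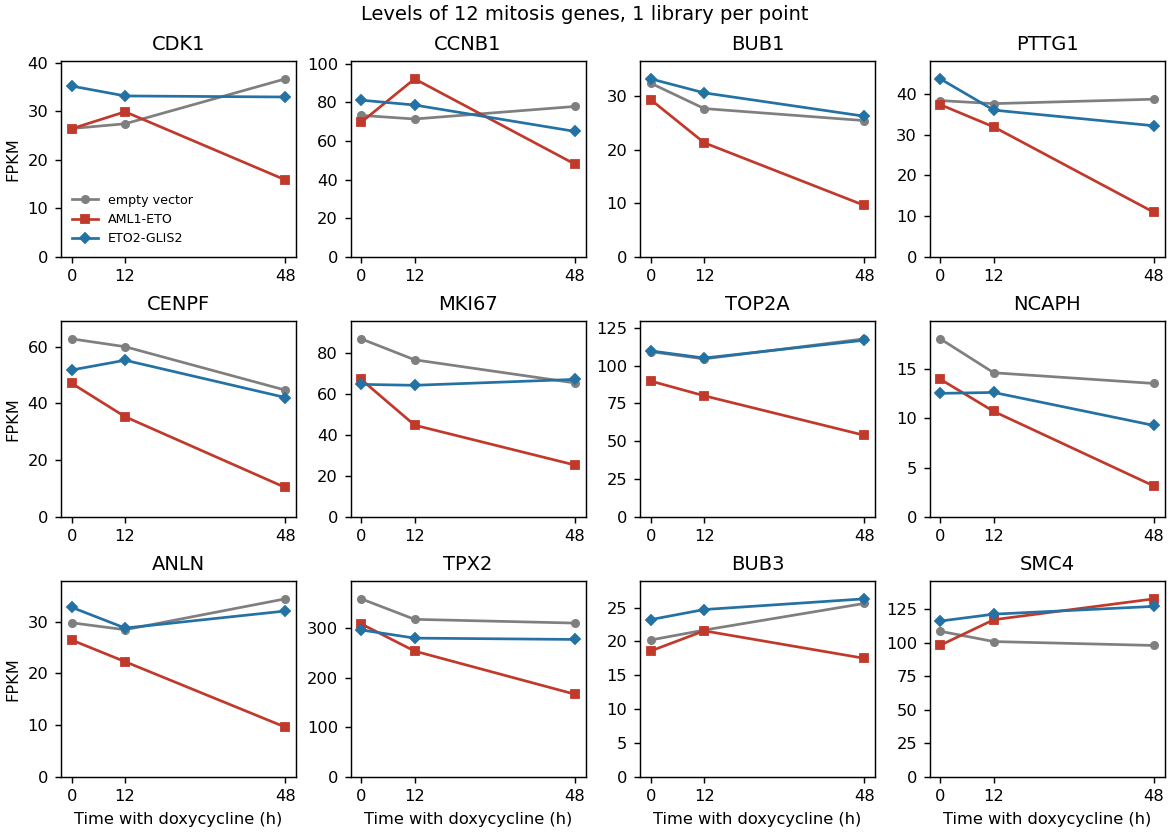
FPKM (y axis, from 0) against hours with doxycycline (x axis) for 12 of the mitosis genes in the 3 lines, 1 library per point. With AML1-ETO, CCNB1 is highest at 12 h (92.2 FPKM) and lowest at 48 h (48.1 FPKM), CENPF and NCAPH are lower at each step, and SMC4 is higher at each step.

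At 12 h of AML1-ETO induction, none of the 49 genes was past 2-fold, where 2.39% of all genes were called lower and 6.57% higher. The median was -0.15, against 0.18 for all genes, and the counting interval lay below 0 for 26 genes (19.5% of all genes) and above 0 for 8 (45.4% of all genes). The lowest values were those of NCAPD2 at -0.68 (-0.74 to -0.63), MKI67 at -0.58 (-0.62 to -0.55) and INCENP at -0.57 (-0.65 to -0.48). The 8 genes above 0 were CDK1, CCNB1, PLK1, BUB3, MAD2L1, CENPE, NUF2 and SMC4, and the highest of them were MAD2L1 at 0.44 (0.32 to 0.57) and CCNB1 at 0.40 (0.33 to 0.48). Counting all 51 genes, 37 were lower at 12 h than at 0 h and lower again at 48 h (17.7% of all genes with a mean of at least 1 FPKM). SMC4 was higher at each step (34.9% of all genes). The remaining 13 were higher at 12 h and then lower at 48 h than at 0 h. The share of all genes with that course was not counted, so the 13 is not read as a result. The 51 include CDC25C and PRC1, which lie below a mean of 1 FPKM. After rescaling by the median ratio, 43 of the 49 genes stood below 0 at 12 h (48.9% of all genes) and 6 above. Most of the difference thus lay after 12 h: between 12 and 48 h the median of the 49 genes was -0.87 and 14 genes were lower by more than 2-fold (10.2% of all genes), with none higher (9.12%).

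In the lines without AML1-ETO, values as deposited went both ways, and most genes lay below the median of all genes. In the empty vector line the counting interval lay below 0 for 16 genes and above 0 for 7 at 12 h (14.3% and 41.4% of all genes), and below 0 for 21 and above 0 for 19 at 48 h (22.3% and 44.3%). The ends of the range at 48 h were KIF20A and BIRC5. In the ETO2-GLIS2 line these counts were 21 and 10 at 12 h (14.6% and 40.1%) and 24 and 11 at 48 h (22% and 46%). Against the median of all genes, 45 of the 49 were lower at 12 h in each of these lines. After rescaling by the median ratio, 46 stood below 0 and 3 above at 12 h in each. Of all genes, 51.9% stood below 0 with the empty vector and 51.4% with ETO2-GLIS2. At 48 h, rescaling gave 32 below and 17 above with the empty vector (49.5% of all genes below). It gave 43 below and 6 above with ETO2-GLIS2 (50.7% of all genes below). The lowest gene at 48 h with ETO2-GLIS2 was TTK, at -0.69 (-0.83 to -0.56), and the highest was ESPL1, at 0.41 (0.32 to 0.51). Of the 51 genes, 19 were lower at both steps with the empty vector (17.1% of all genes with a mean of at least 1 FPKM) and 12 higher at both (35.0%). With ETO2-GLIS2, 16 were lower at both steps (13.5%) and 10 higher at both (37.5%), and the rest were mixed.

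The empty vector line received the same drug over the same time, so the fusion lines were also set against it. The fold change at 48 h of the AML1-ETO line minus the fold change of the control had a median of -1.02 log2 over the 49 genes, against 0.01 for all genes. It was past 2-fold lower for 27 (12.5% of all genes), and its counting interval lay below 0 for 48 (33% of all genes). The largest differences were PTTG1 at -1.79 (-2.00 to -1.58), NCAPH at -1.74 (-1.94 to -1.54), BIRC5 at -1.73 (-1.94 to -1.53), CENPF at -1.70 (-1.78 to -1.61), CENPA at -1.69 (-1.89 to -1.48) and ANLN at -1.67 (-1.80 to -1.54). SMC4 was the 1 gene above 0, at 0.58 (0.54 to 0.63) (32.9% of all genes had an interval above 0). For ETO2-GLIS2 the same difference at 48 h had a median of -0.02 and none past 2-fold (3.18% of all genes lower, 3.35% higher), with 18 intervals below 0 (24.5%) and 13 above (27.7%). At 12 h the medians were -0.08 for AML1-ETO, with 23 intervals below 0 (22.6%) and 4 above (24.3%), and -0.01 for ETO2-GLIS2, with 10 below (20.6%) and 9 above (17.5%). None of the 49 genes passed 2-fold at 12 h in either, where 3.65% of all genes were lower and 2.85% higher for AML1-ETO, and 2.45% lower and 1.48% higher for ETO2-GLIS2. Both fusion lines were compared with the same empty vector libraries.

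Before induction the lines already differed somewhat. Even without doxycycline, RUNX1T1 was higher in the AML1-ETO line than in the other lines, and its part in the following values was not tested. In the uninduced AML1-ETO line 42 of the 49 genes were lower than in the uninduced empty vector line (48.9% of all genes were), with a median log2 difference of -0.15 and a range from -0.41 for CENPF to 0.75 for UBE2C. In the uninduced ETO2-GLIS2 line the median was 0.01, from -0.67 for INCENP to 0.82 for ASPM. None of these differences passed 2-fold, where 2.24% of all genes were lower and 2.67% higher for AML1-ETO, and 2.99% lower and 3.42% higher for ETO2-GLIS2. Measured against the empty vector library at 48 h rather than against its own 0 h, the AML1-ETO library at 48 h had a median of -1.16, with 33 of the 49 genes more than 2-fold lower (11.7% of all genes). For the ETO2-GLIS2 library at 48 h set against the same control library, the median was -0.16, with 38 of the 49 genes lower (46.8% of all genes), none past 2-fold lower (2.53%) and 1, ASPM at 1.07, past 2-fold higher (4.15%).

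A further 116 genes of mitosis outside the 51 were listed by function, also with earlier results of these data known. Of these, 111 were tested in the AML1-ETO line at 48 h. Among the 111, 84 were lower and 27 higher, with a median of -0.60, where 39.1% of all genes were lower. Past 2-fold, 29 were lower (11.3% of all genes) and 1 was higher (17.3%). Some regulators of this programme were past 2-fold lower, and others were higher. MYBL2, the B-MYB factor that joins MuvB, measured 131, 133 and 76.5 FPKM with the empty vector, 111, 79.1 and 24.7 FPKM with AML1-ETO and 77.4, 93.2 and 58.4 FPKM with ETO2-GLIS2. FOXM1, which takes over from it in G2, measured 54.5, 48.3 and 46.0 FPKM with the empty vector, 43.7, 31.2 and 19.6 FPKM with AML1-ETO and 34.6, 33.2 and 35.4 FPKM with ETO2-GLIS2. E2F2, an activating E2F, measured 12.0, 17.2 and 11.8 FPKM with the empty vector, 8.19, 6.73 and 1.66 FPKM with AML1-ETO and 6.50, 11.4 and 11.1 FPKM with ETO2-GLIS2. Their log2 fold changes with AML1-ETO at 48 h were -2.16 (-2.26 to -2.06), -1.16 (-1.25 to -1.07) and -2.30 (-2.58 to -2.04). E2F5, an E2F of the repressive DREAM complex, was the 1 gene past 2-fold higher, but it reached the mean of 1 FPKM needed for a call only through that 48 h library, and in no other comparison with 0 h, so it had to be higher there. It measured 0.594, 0.848 and 0.823 FPKM with the empty vector, 0.473, 1.12 and 1.92 FPKM with AML1-ETO and 0.651, 0.624 and 1.09 FPKM with ETO2-GLIS2. Over the 19 regulators tested the median was -0.20, with 11 lower, 6 of them past 2-fold, and 8 higher. The counting interval lay below 0 for 11 (29.5% of all genes) and above 0 for 7 (48.5%). Among the higher were RB1 at 0.85 (0.79 to 0.91), NFYC at 0.59 (0.44 to 0.74) and NFYA at 0.56 (0.46 to 0.66). NFYB, the other NF-Y gene, was lower, at -0.998 (-1.23 to -0.77). Among 27 further kinetochore and centromere genes 9 were past 2-fold lower, with TRIP13, which recycles Mad2, at -1.69 (-1.91 to -1.49). All 3 remaining condensin genes were lower, among them NCAPG2 at -1.40 (-1.48 to -1.32). All 13 further kinesin and spindle genes were lower as well, 5 of them past 2-fold, such as PLK4, the kinase of centriole duplication, at -1.38 (-1.53 to -1.22). Of 14 genes of entry and exit phosphorylation 2 were past 2-fold lower, with the phosphatase CDC25A at -1.65 (-1.83 to -1.48), and of 10 further cytokinesis genes 2 were. Of 12 cohesin genes 2 were, with CDCA5, which holds cohesin on chromosomes, at -1.90 (-2.04 to -1.75). With only 2 genes each, where 11.3% of all genes were lower, the counts of these last 3 lists are not read as a result. The 13 genes of the anaphase-promoting complex had a median of 0.22, the value of all genes, and only its inhibitor FBXO5 was past 2-fold lower, at -1.17 (-1.33 to -1.01). With ETO2-GLIS2 at 48 h, 1 of 110 tested was past 2-fold lower (2.54% of all genes), CENPH at -1.06 (-1.24 to -0.89). None was higher (10.8%), and the median was -0.01, against 0.16 for all genes. With the empty vector at 48 h none of 111 was called, where 2.99% of all genes were lower and 8% higher. Their median was 0.05, against 0.16 for all genes.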

How the data were processed

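RNA-seq was made from 9 libraries of U937 lines, 1 per line and time. The authors aligned reads to hg38 with HISAT2 (2.0.5), processed the alignments in SAMtools (1.7), used HTSeq (0.9.1) at its default settings for read counting and deposited FPKM for 60623 genes. FPKM is relative to the reads on all genes, so a shift in a few abundant genes moves all others. By default HTSeq counts by strand and leaves out reads that overlap several genes, while the TruSeq RNA version 2 kit does not mark strand. The annotation version is not given in the sources used here. One list of cell type markers is not reported here. The labels gave the line and time of each library, and 0 columns were left unmapped.

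From the deposited FPKM, whole reads (within 0.01) were recovered for 23885 of the 23889 genes that 3 or more libraries list above 0. The work used scipy (1.17.1), pandas (2.3.3), numpy (2.4.6) and matplotlib (3.10.9) under Python (3.11.15). The recovery was tested on simulated data, and it returned the exact reads for 99.7% of 23427 genes. Totals were 15136404 to 18443647 reads on genes. Recovered reads gave the intervals and summed levels, and fold changes used the FPKM as deposited with a pseudocount of 0.01. Ratios have exact 95% Clopper-Pearson intervals and differences between lines have Wald intervals, both for counting error only, since no molecular identifiers separate molecules from PCR copies. No p-value was computed, because each condition has 1 library.

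The genes and lists were chosen with earlier results of these data known. Values in all libraries are given for CDK1, CCNB1, MKI67 and TOP2A, for the genes with the highest mean level or an end of the range at 48 h in their role group in either fusion line, and for every gene past 2-fold. Of the other mitosis genes, at most 3 past 2-fold per list come under this rule. FOXM1, RB1, NFYA, NFYB and NFYC were added after their values were seen. Gene overlaps come from an annotation on GRCh37, from which no coordinates were taken, and positions and promoters from RefSeq on GRCh38.p14. Alternatives covered the pseudocount, the filter on low values, the scaling, the fold threshold, the reference library and the subtraction of the empty vector line. They also covered FPKM summed over identifiers of a name, which could not change a value because no gene name repeats. The ChIP-seq of the study was not analysed here.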

Additional observations from a re-analysis of the deposited data

Results flagged for a closer look

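By sign alone, 9 of 49 genes moved in opposite directions at both 12 and 48 h between the empty vector and AML1-ETO lines, 7 between the empty vector and ETO2-GLIS2 lines and 7 between the fusion lines. The share of all genes was not counted, so these counts are not read as a result about the mitosis genes. SMC4 and ESPL1 are the genes for which all 4 counting intervals of such a pair of lines also excluded 0. These differences were not tested, because each condition has 1 library. For SMC4, the condensin ATPase gene, the value at 48 h in the empty vector line minus that in the AML1-ETO line was -0.58, and minus that in the ETO2-GLIS2 line it was -0.28. After rescaling by the median ratio, SMC4 stood at -0.30 in the empty vector line, 0.27 with AML1-ETO and -0.04 with ETO2-GLIS2 at 48 h, so the opposite sign against ETO2-GLIS2 was lost. For ESPL1, the separase gene, the value at 48 h in the empty vector line minus that in the AML1-ETO line was 1.14, and the value with AML1-ETO minus that with ETO2-GLIS2 was -1.34. After rescaling, ESPL1 in the empty vector line stood at -0.02 at 12 h and 0.06 at 48 h, at -0.34 and -1.10 with AML1-ETO, and at 0.00 and 0.25 with ETO2-GLIS2.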

How the results depend on the processing

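Of 144 alternative values for 18 results, 129 were labelled the same as reported, 15 moved and 0 changed sign. A median was the same when it moved by no more than the typical half-width of a gene's counting interval. A count was the same when equal or within a ratio of 1.5, and many of these counts were 0 throughout. The 129 also include values summed over identifiers of a name, which could not differ because no gene name repeats. Rescaling by the median ratio lowers the median of all genes by 0.12 to 0.17 log2. With it the medians of the mitosis genes were -0.20 and -0.19 at 12 and 48 h in the empty vector line, -0.32 and -1.16 in the AML1-ETO line, and -0.18 and -0.26 in the ETO2-GLIS2 line. With the empty vector library at 0 h as the reference, the AML1-ETO median at 48 h was -1.14. Without a filter on low values, 1 gene was called higher, PRC1, at both times with the empty vector and at both times with ETO2-GLIS2. At a threshold of 1.5-fold, 43 genes were lower with AML1-ETO at 48 h (18.5% of all genes) and 1 at 12 h (NCAPD2, 6.17% of all genes). At 48 h, 1 was lower in the empty vector line (KIF20A, 7.4% of all genes) and 1 in the ETO2-GLIS2 line (TTK, 6.24% of all genes). Over all alternatives at 2-fold, the number lower with AML1-ETO at 48 h ran from 20, with a pseudocount of 1, to 31, with the empty vector library at 0 h as the reference. The share of all genes was not counted for either setting, nor without the filter. No paired analysis was possible because each condition has 1 library and the result comes from no test, and for the same reason no library could be left out within a condition. Depth limits SPC24, SPC25 and KIF18A, whose intervals are the widest of the 49 genes.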
